A study of Homo sapiens with 12 samples.

Results

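The 9 genes described here encode the MHC class I antigen presentation machinery: the heavy chain genes HLA-B, HLA-C, HLA-E and HLA-F, the light chain gene B2M, the peptide transporter genes TAP1 and TAP2, the tapasin gene TAPBP and the transcriptional regulator gene NLRC5. They were picked out by gene symbol, as a set proposed with earlier results of these data known, and all 9 were found once among the 58302 genes of the deposited tables. RNA was sequenced from NCI-H1703 and NCI-H1299, established human lung cancer lines labelled as epithelial, after 24 h with SAHA (vorinostat, an inhibitor of histone deacetylases) or with DMSO vehicle. The 12 libraries form 4 groups of 3: H1703 with SAHA, H1703 with DMSO, H1299 with SAHA and H1299 with DMSO. The labels list SAHA at 0, 2.5, 10 and 40 µM and DMSO at 0.1% without saying which dose the sequenced cells received, so no value belongs to a stated dose and equal dosing of the lines is not known. Whether the 3 replicates of a group came from separate cultures is not stated, and the p-values then cover only library-to-library spread, which may be technical.

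MHC class I molecules display peptides from inside the cell to CD8 T cells and to natural killer cells. Proteasomes cut proteins into peptides, the TAP1 and TAP2 proteins carry the peptides into the endoplasmic reticulum, and tapasin holds empty class I molecules at the transporter while they are loaded. A class I molecule is a heavy chain paired with beta-2-microglobulin. NLRC5 does not bind DNA on its own: it reaches class I promoters through the RFX, CREB/ATF and NF-Y factors bound there, and interferon gamma induces most of the pathway. Tumours often carry low class I expression, and the class I genes of cancer cells are known to respond to histone deacetylase inhibitors.

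Total counts per library ran from 14416126 to 19408852. Mitochondrially encoded genes took 8.77 to 10.9% of counts in H1703 SAHA libraries and 5.44 to 6.27% in H1703 DMSO libraries, against 3.999 to 4.23% in H1299 SAHA libraries and 1.96 to 2.22% in H1299 DMSO libraries. Leaving those genes out of the scaling changed no call and no direction of the 9 genes. The keratin gene KRT18 was at 377 to 393 CPM (counts scaled to a common library size by TMM) in H1299 DMSO libraries, where the cadherin gene CDH1 had 0 counts in all 3 and the adhesion gene EPCAM at most 8 counts. Summed over 6 epithelial markers, levels were 2950 to 3410 CPM in H1703 SAHA, 3980 to 4440 in H1703 DMSO, 1360 to 1580 in H1299 SAHA and 590 to 613 in H1299 DMSO. The 14 leukocyte markers summed to 36.8 to 57.2 CPM in H1703 SAHA, 15.7 to 31.0 in H1703 DMSO, 9.38 to 11.6 in H1299 SAHA and 4.08 to 4.96 in H1299 DMSO. The pan-leukocyte gene PTPRC had at most 3 counts in any library, CD14 had 185 to 601 counts in H1703 libraries and at most 5 in H1299 libraries, and the B-cell gene MS4A1 had 0 counts in every library. The 4 fibroblast markers summed to 112 to 126 and 63.0 to 72.2 CPM in H1703 SAHA and DMSO, and to 37.7 to 50.7 and 1.36 to 2.55 in H1299 SAHA and DMSO. The 3 endothelial markers summed to 3.26 to 4.27 and 0.275 to 0.511 CPM in H1703 SAHA and DMSO, and to 4.6 to 5.97 and 0.679 to 0.768 in H1299 SAHA and DMSO. Summed leukocyte, fibroblast and endothelial markers were thus higher in the SAHA group of each line, while the epithelial sum was lower with SAHA in H1703 and higher in H1299. Single markers within a sum did not all move alike. In H1703, KRT7 averaged 613 CPM with SAHA and 2180 with DMSO, while KRT8 averaged 1540 and 1230 and KRT19 309 and 15.9. The leukocyte marker CSF1R averaged 9.61 CPM with SAHA and 0.334 with DMSO in H1703, whereas ITGAM averaged 2.18 and 3.48 in H1299. In H1703 the fibroblast marker LUM was higher with SAHA, while COL1A1 overlapped. The endothelial marker PECAM1 averaged 0.464 CPM with SAHA and 0.625 with DMSO in H1299. The part of the markers in the results for the class I genes was not tested. In bulk RNA, fewer cells of a type and less RNA per cell cannot be told apart.

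Class I promoters are known to carry a shared block of elements. The windows below show motif matches in HLA-B, HLA-C and HLA-F, beside the promoters of TAP2 and TAPBP. HLA-F matched only part of the motifs found in HLA-B and HLA-C. The sequences are RefSeq promoter windows on GRCh38.p14, printed from 5′ to 3′ along the gene and ending at the base before the start. Capitals mark matches, on either strand, to the Y box CCAAT (the NF-Y site), the X2 box TGACG (the CREB/ATF site), the interferon response element (GAAA, any 2 bases, GAAA) and the kappa B motif (GGGA, any 4 bases, CC). HLA-B, HLA-C and HLA-F are shown as heavy chain genes that rose in both lines, TAP2 as the gene whose direction differed between the lines and TAPBP as the gene that fell in both. HLA-E also rose in both lines but had no window.
HLA-B chr6:31357180-31357379, minus strand: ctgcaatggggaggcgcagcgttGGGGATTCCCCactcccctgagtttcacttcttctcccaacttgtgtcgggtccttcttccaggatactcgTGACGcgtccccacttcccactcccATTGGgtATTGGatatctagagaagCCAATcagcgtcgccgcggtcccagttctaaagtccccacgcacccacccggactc
HLA-C chr6:31272093-31272292, minus strand: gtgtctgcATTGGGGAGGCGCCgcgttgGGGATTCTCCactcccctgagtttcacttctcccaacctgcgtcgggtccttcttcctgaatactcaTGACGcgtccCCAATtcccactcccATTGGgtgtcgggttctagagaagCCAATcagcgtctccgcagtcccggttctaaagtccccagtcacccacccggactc
HLA-F chr6:29723234-29723433, plus strand: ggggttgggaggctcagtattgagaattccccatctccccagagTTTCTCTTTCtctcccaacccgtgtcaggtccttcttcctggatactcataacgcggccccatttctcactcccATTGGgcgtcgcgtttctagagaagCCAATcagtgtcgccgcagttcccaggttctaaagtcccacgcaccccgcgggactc
TAP2 chr6:32838740-32838889, minus strand: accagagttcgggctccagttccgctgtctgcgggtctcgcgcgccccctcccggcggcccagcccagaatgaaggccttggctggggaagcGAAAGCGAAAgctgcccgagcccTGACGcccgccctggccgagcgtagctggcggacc
TAPBP chr6:33314079-33314228, minus strand: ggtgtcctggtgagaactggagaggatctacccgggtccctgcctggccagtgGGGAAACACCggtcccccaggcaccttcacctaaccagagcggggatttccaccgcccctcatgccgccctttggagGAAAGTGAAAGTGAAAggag

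Windows were found for 7 of the 9 genes, with HLA-E and NLRC5 without one in the table used. Among 35116 promoter windows searched over the 250 bases before the start, 32.0% held the Y box, 21.2% the X2 box, 22.6% the kappa B motif and 3.0% the interferon response element. HLA-B and HLA-C both held kappa B, X2 and Y box matches and no interferon response element in these letters. In HLA-B the kappa B matches overlapped each other 167 to 177 bases before the start, and the X2 box lay 102 to 106 bases before it. Matches to the Y box letters lay 77 to 81, 70 to 74 and 52 to 56 bases before the start. The letters do not tell which of these belongs to the shared block. HLA-F held the interferon response element and 2 Y boxes, with no X2 box or kappa B match. B2M was the one window of these genes with all 4 motifs, among them 2 overlapping interferon response elements and 2 overlapping kappa B matches. The first TAP1 window held 2 overlapping interferon response elements, a Y box and 2 kappa B matches, and its second window none of the 4 motifs. TAP2 had 1 interferon response element and 1 X2 box, and TAPBP had 2 overlapping interferon response elements and 1 kappa B match. Aligned over the whole windows, HLA-B and HLA-C were 89.0% identical, HLA-B and HLA-F 80.4% and HLA-C and HLA-F 78.7%, whereas the other pairs ran from 47.3 to 51.9%. A match describes letters in a window and does not show that a factor binds there.

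In H1703, SAHA was accompanied by higher RNA of all 4 heavy chain genes and of TAP2, and by lower RNA of TAPBP. HLA-B and HLA-F changed most, 7.49-fold and 7.21-fold higher than in DMSO. TAP1, NLRC5 and B2M did not pass the test. The count was 5 of 9 genes higher and 1 lower, where 34.7% of all 17273 tested genes were called higher and 32.6% lower (67.4% in all). The median log2 fold change was 0.78 over the 9 genes and 0.02 over all tested genes. Calls are from edgeR's quasi-likelihood test at a Benjamini-Hochberg adjusted p below 0.05 over all genes.

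In H1299, SAHA was accompanied by higher RNA of the same 4 heavy chain genes and of TAP1, and by lower RNA of TAP2 and TAPBP. HLA-F rose 6.78-fold, while HLA-B rose 1.56-fold. B2M and NLRC5 did not pass the test. The count was 5 of 9 higher and 2 lower, against 33.3% higher and 30.4% lower among 17277 tested genes (63.8% in all). The median log2 fold change was 0.29 over the 9 genes and 0.02 over all tested genes. The count of higher genes was less firm here: it was 4 without DMSO library 1 or SAHA library 1, 3 without SAHA library 3, and 2 without DMSO library 2, DMSO library 3 or SAHA library 2. With the replicate number as a block it was 3.

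**Figure D1:**
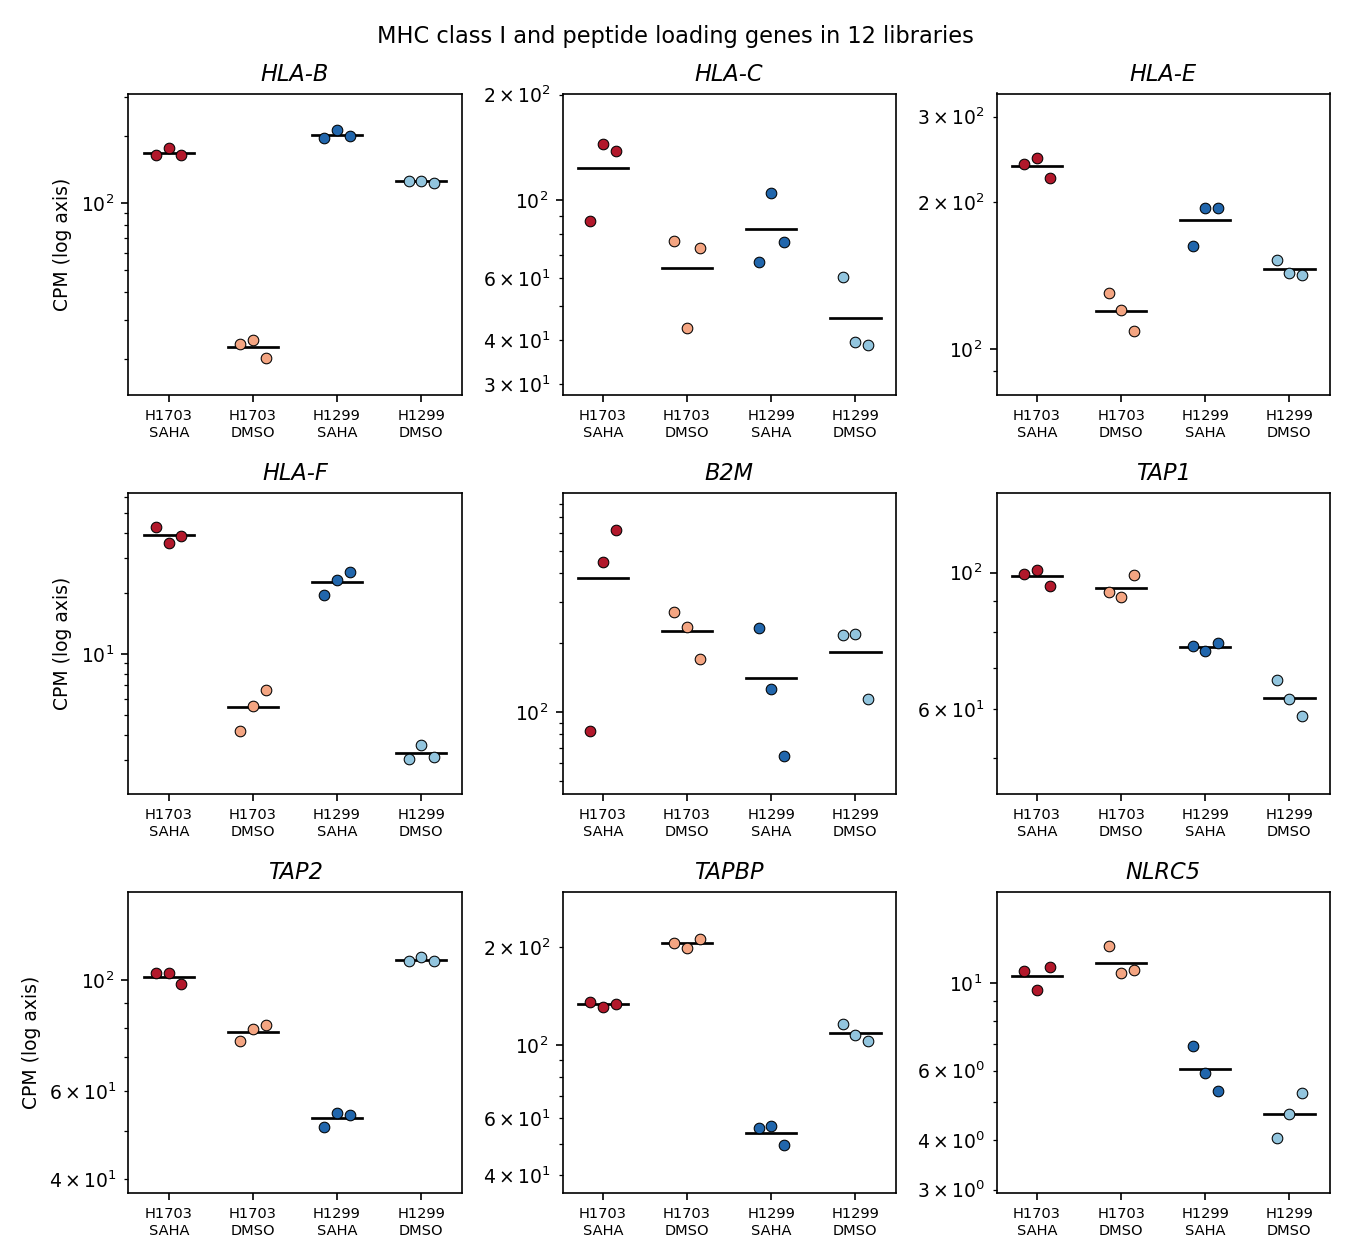
Normalised level of each of the 9 genes in CPM (vertical log axis, its range differing between panels) in the 3 libraries of each group (points), with the group mean as a line. HLA-F is higher in every SAHA library of both lines, TAP2 is higher with SAHA in H1703 and lower in H1299, and B2M spreads from 82.5 to 616 CPM within the H1703 SAHA group.

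The heavy chain genes encode the peptide-binding chains. HLA-B, a classical heavy chain that presents to CD8 T cells, had 164, 176 and 164 CPM in the H1703 SAHA libraries, against 23.3, 24.4 and 20.2 CPM in the H1703 DMSO libraries. In H1299, HLA-B had 195, 212 and 200 CPM with SAHA and 126, 126 and 123 CPM with DMSO. Every SAHA library lay above every DMSO library in both lines, and the H1703 DMSO libraries were lowest of all 12. The log2 fold change was 2.90 ± 0.09 (SE) in H1703 (edgeR adjusted p = 1.7e-08) and 0.64 ± 0.07 in H1299 (edgeR adjusted p = 6.2e-05). The interaction in the fit over 12 libraries, H1703 minus H1299, was 2.19 ± 0.11 (edgeR adjusted p = 9.7e-09), so the response differed between the lines beyond the spread of the libraries. Under DMSO alone, HLA-B was 5.50-fold lower in H1703 than in H1299 (-2.46 ± 0.08, edgeR adjusted p = 7.2e-12). The HLA-B row overlaps that of HLA-C, and HLA sequences vary between people. Reads lost or split by sequence may thus enter this difference between the lines, which was not tested.

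HLA-F, a nonclassical heavy chain known as a ligand of natural killer cell receptors, had 42.6, 35.6 and 38.4 CPM in H1703 with SAHA and 4.15, 5.54 and 6.67 CPM with DMSO. In H1299 the libraries had 19.6, 23.4 and 25.4 CPM with SAHA and 3.02, 3.55 and 3.11 CPM with DMSO. The groups did not overlap in either line. The log2 fold change was 2.85 ± 0.17 in H1703 (edgeR adjusted p = 5.6e-07) and 2.76 ± 0.15 in H1299 (edgeR adjusted p = 8.8e-07). The interaction was 0.02 ± 0.25 (edgeR adjusted p = 0.993), which does not show equal responses, and its sign turned with total-count scaling and with some libraries left out. Under DMSO, HLA-F was 1.69-fold higher in H1703 (0.75 ± 0.18, edgeR adjusted p = 0.00193). The row of the antisense gene HLA-F-AS1 overlaps HLA-F and also rose, by 1.03 ± 0.37 in H1703 (edgeR adjusted p = 0.0312) and 1.32 ± 0.20 in H1299 (edgeR adjusted p = 3.8e-04), at 14 to 98 counts per library. The labels contradict each other on strandedness, so reads of the pair cannot be told apart.

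HLA-E, the heavy chain that shows signal peptides of other class I chains to NKG2A, had 240, 247 and 224 CPM in H1703 with SAHA and 130, 120 and 109 CPM with DMSO. The H1299 libraries had 163, 195 and 195 CPM with SAHA and 152, 143 and 142 CPM with DMSO. The groups did not overlap in either line, with the narrower gap in H1299. The log2 fold change was 1.00 ± 0.09 in H1703 (edgeR adjusted p = 5.5e-06) and 0.29 ± 0.09 in H1299 (edgeR adjusted p = 0.0209), and the interaction was 0.64 ± 0.13 (edgeR adjusted p = 0.00141). Without single libraries the H1299 call was lost, with edgeR adjusted p of 0.075 without DMSO library 2, 0.0849 without DMSO library 3, 0.0606 without SAHA library 2 and 0.0675 without SAHA library 3. Under DMSO, HLA-E was lower in H1703 than in H1299 (-0.28 ± 0.09, edgeR adjusted p = 0.0136), a call lost without H1299 DMSO library 1 (edgeR adjusted p = 0.0517) or H1703 DMSO library 3 (edgeR adjusted p = 0.0723).

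HLA-C, a classical heavy chain and the main ligand of killer-cell immunoglobulin-like receptors, had 87.3, 145 and 138 CPM in H1703 with SAHA and 76.5, 43.4 and 72.9 CPM with DMSO. For H1299 the values were 66.9, 105 and 76.3 CPM with SAHA and 60.5, 39.5 and 38.8 CPM with DMSO. The groups did not overlap, but libraries within each group differed more than for the other heavy chain genes. The log2 fold change was 0.96 ± 0.30 in H1703 (edgeR adjusted p = 0.033) and 0.78 ± 0.24 in H1299 (edgeR adjusted p = 0.0238), with an interaction of 0.11 ± 0.41 (edgeR adjusted p = 0.891). The H1703 call was lost without DMSO library 3 (edgeR adjusted p = 0.0625), SAHA library 2 (0.099) or SAHA library 3 (0.106), and with the replicate block (0.12). The H1299 call was lost without DMSO library 2 (edgeR adjusted p = 0.072), DMSO library 3 (0.0726) or SAHA library 2 (0.0528), and with the replicate block (0.061). The DMSO libraries of the lines overlapped (0.47 ± 0.29, edgeR adjusted p = 0.18). The HLA-B row of the tables, chr6:31269491-31357188, spans most of HLA-C at chr6:31268749-31272130, and the sequences of these genes are alike and vary between people, so reads may have been split or lost between them.

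**Figure D2:**
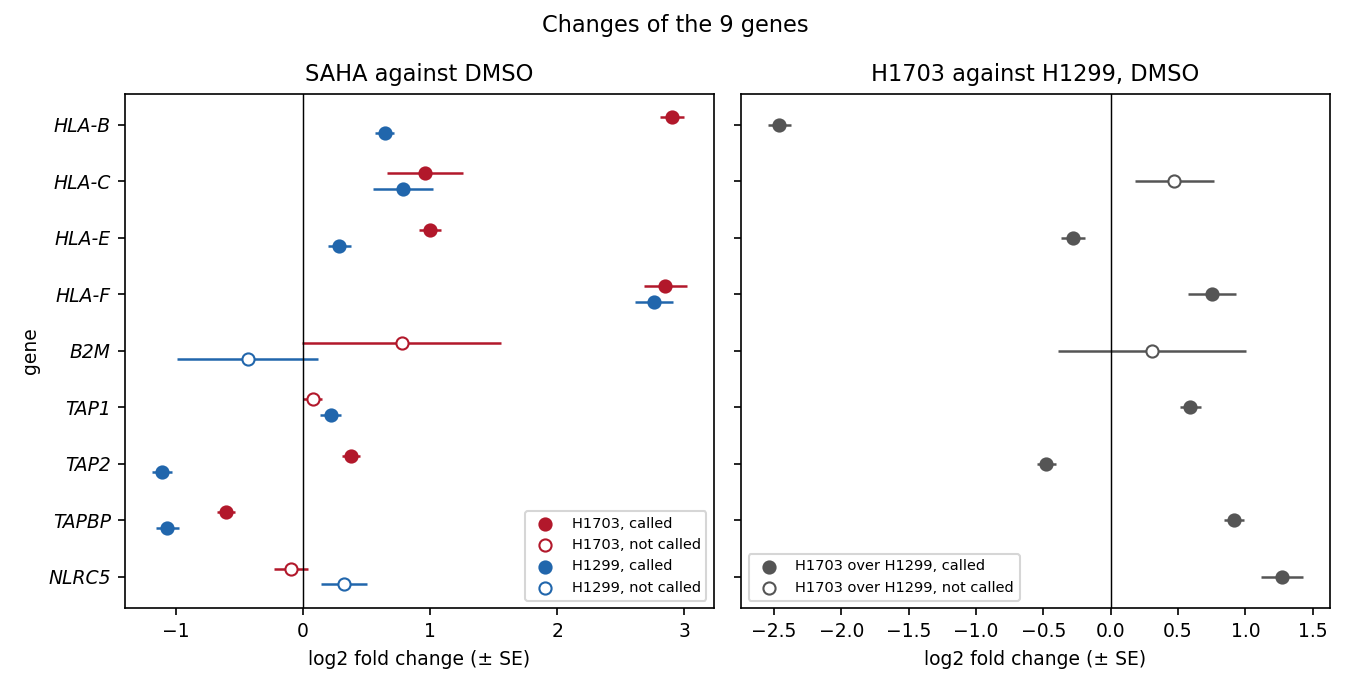
Log2 fold changes (horizontal axis) with 1 SE as bars for the 9 genes (rows): SAHA against DMSO in each line on the left and H1703 against H1299 under DMSO on the right, filled where the edgeR adjusted p was below 0.05. HLA-B and HLA-E rose more in H1703, HLA-F lay at 2.85 and 2.76 in H1703 and H1299, and TAP2 stood on opposite sides of 0.

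The make-up of the heavy chain RNA was read from the deposited FPKM, which divides counts by library total and gene length, as each gene's share of the FPKM of the 4 genes within a library. HLA-B made up 24.5 ± 0.497% in H1703 SAHA libraries and 8.27 ± 1.09% in H1703 DMSO libraries (SD, n = 3 each). HLA-E made up 53.7 ± 2.94% and 67.5 ± 4.41% in H1703 SAHA and DMSO libraries, and HLA-F 4.06 ± 0.582% and 1.43 ± 0.416%. In H1703 the groups did not overlap for HLA-B, HLA-E or HLA-F, while HLA-C shares overlapped (17.7 ± 3.88% with SAHA and 22.8 ± 5.45% with DMSO, two-sided exact permutation p = 0.3). For H1299 SAHA and DMSO libraries the shares were 34.7 ± 1.97% and 31.4 ± 1.44% for HLA-B, 48.8 ± 1.73% and 56.7 ± 0.905% for HLA-E, and 2.76 ± 0.226% and 0.578 ± 0.0708% for HLA-F. HLA-C shares overlapped in H1299 too, at 12.5, 16.3 and 12.6% with SAHA and 14.1, 10.0 and 9.96% with DMSO (two-sided exact permutation p = 0.3). The differences of HLA-B, HLA-E and HLA-F each had a two-sided exact permutation p of 0.1 in both lines, the smallest that 3 against 3 libraries can give. With canonical transcript lengths in place of the lengths behind the FPKM, the HLA-B share in H1299 was 48.4 ± 2.57% with SAHA and 47.7 ± 2.55% with DMSO (two-sided exact permutation p = 0.8, n = 3 each), so the higher HLA-B share with SAHA in H1299 was seen with the deposited lengths only. With canonical lengths HLA-B also had a larger mean share than HLA-E in H1703 SAHA libraries, at 35.5 ± 1.54% against 30.2 ± 2.39%, and in both H1299 groups. The HLA-C shares in H1703 did not overlap with canonical lengths, at 19.8, 28.5 and 28.9% with SAHA and 41.8, 29.7 and 43.9% with DMSO (two-sided exact permutation p = 0.1). The overlap of HLA-C shares in H1703 was thus seen with the deposited lengths only.

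**Figure D3:**
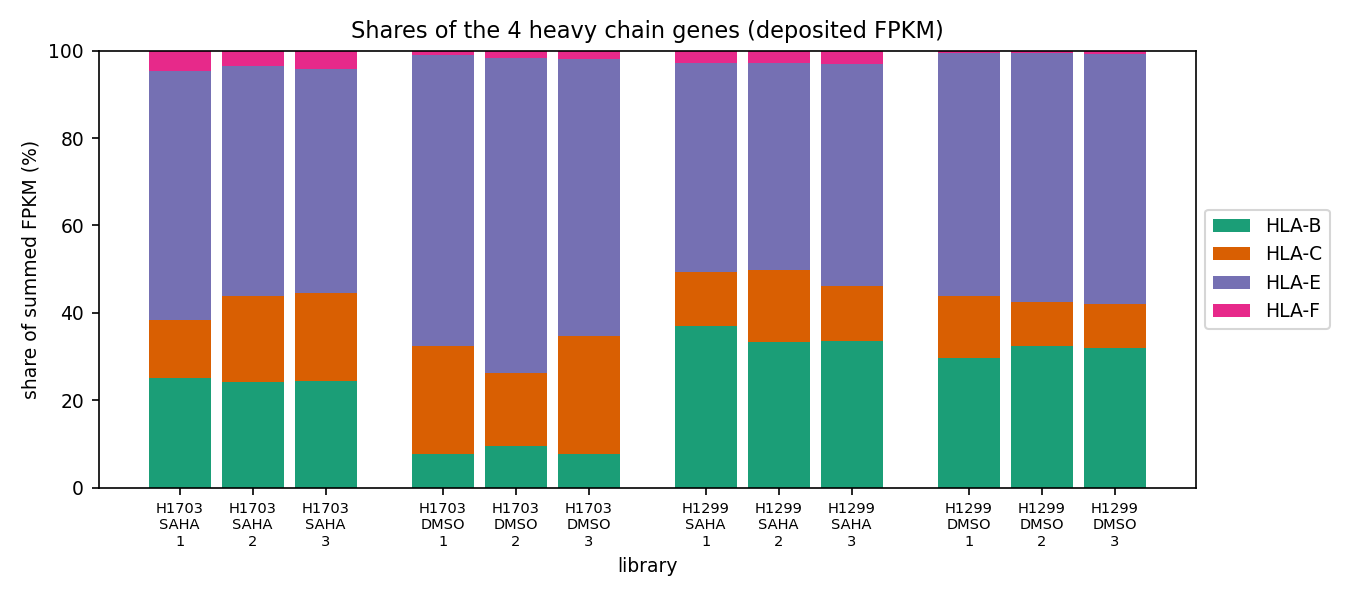
Share of the summed deposited FPKM of the 4 heavy chain genes (vertical axis, percent, from 0) in each library (bars, in 4 groups of 3). HLA-B takes 24.2 to 25.1% in H1703 SAHA libraries against 7.60 to 9.52% in H1703 DMSO libraries, and HLA-E takes the largest share in all 12 by deposited lengths.

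B2M, which encodes the light chain shared by all class I molecules, had 82.5, 447 and 616 CPM in H1703 with SAHA and 272, 235 and 169 CPM with DMSO. In H1299 it had 231, 126 and 64.3 CPM with SAHA and 215, 219 and 114 CPM with DMSO. The groups overlapped in both lines, and the H1703 SAHA group held both the lowest H1703 library and its highest. The log2 fold change was 0.78 ± 0.78 in H1703 (edgeR adjusted p = 0.428) and -0.43 ± 0.55 in H1299 (edgeR adjusted p = 0.531), with an interaction of 1.14 ± 0.99 (edgeR adjusted p = 0.426) and a difference between the lines under DMSO of 0.30 ± 0.70 (edgeR adjusted p = 0.726). The H1703 value moved with the libraries used: it was 1.25 without SAHA library 1 (edgeR adjusted p = 0.00736), 0.24 without SAHA library 3 (edgeR adjusted p = 0.82) and 0.45 with the replicate block (edgeR adjusted p = 0.761). In H1299 it ran from -0.996 without SAHA library 1 (edgeR adjusted p = 0.147) to -0.10 without SAHA library 3 (edgeR adjusted p = 0.858). The ratio of B2M to the 4 heavy chain genes in FPKM was 0.061, 0.296 and 0.439 in H1703 SAHA libraries and 0.432, 0.44 and 0.306 in H1703 DMSO libraries. It was 0.211, 0.0952 and 0.0519 in H1299 SAHA libraries and 0.244, 0.271 and 0.144 in H1299 DMSO libraries. Two-sided exact permutation tests gave p = 0.3 in H1703 and p = 0.2 in H1299 (n = 3 each). The FPKM length of B2M, 12.755 kb, exceeds the 7.401 kb span of the gene. With canonical transcript lengths the ratio was 0.306, 1.44 and 2.11 in H1703 SAHA and 2.43, 2.63 and 1.66 in H1703 DMSO libraries. It was then 0.991, 0.446 and 0.249 in H1299 SAHA and 1.25, 1.40 and 0.744 in H1299 DMSO libraries (two-sided exact permutation p = 0.2 in each line). Whether B2M lay above or below the heavy chain genes thus depended on the length used.

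The spread of B2M stood apart from that of genes at a like level. Its SD of log2 CPM within groups was 0.959, against a median of 0.113 over 836 other genes within 0.5 of its mean log2 CPM, and 1 of those genes had an SD as large. HLA-C followed at 0.390, larger than 96.3% of 2317 such genes. TAP2 was among the tightest at 0.0439, larger than 0.5% of its neighbours. With an SE of 0.78, a change in B2M of the size seen for HLA-E in H1703 was not detectable.

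**Figure D4:**
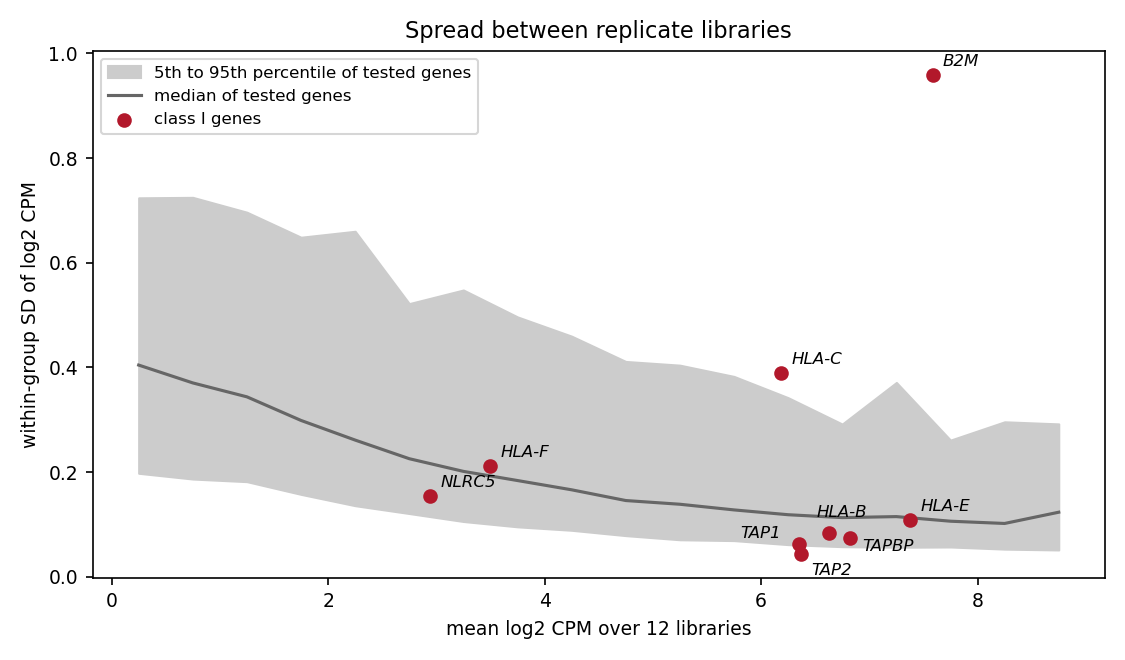
Within-group SD of log2 CPM (vertical axis) against mean log2 CPM over 12 libraries (horizontal axis) for the 9 genes (points), with the median (line) and the 5th to 95th percentiles (band) of tested genes in level bins. B2M at 0.959 and HLA-C at 0.390 lie above the band, and TAP2 at 0.0439 lies below it.

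TAP1 and TAP2 encode the subunits of the peptide transporter, which acts as a heterodimer. TAP2 had 103, 103 and 97.9 CPM in H1703 with SAHA and 75.4, 79.6 and 81.3 CPM with DMSO. H1299 libraries had 50.8, 54.2 and 53.6 CPM with SAHA and 109, 111 and 109 CPM with DMSO. The SAHA libraries were all higher in H1703 and all lower in H1299. The log2 fold change was 0.38 ± 0.07 in H1703 (edgeR adjusted p = 0.00127) and -1.11 ± 0.08 in H1299 (edgeR adjusted p = 3.1e-06), and the interaction was 1.41 ± 0.10 (edgeR adjusted p = 1.1e-07). Under DMSO, TAP2 was lower in H1703 than in H1299 (-0.48 ± 0.07, edgeR adjusted p = 2.7e-05).

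TAP1 had 99.5, 101 and 95.2 CPM in H1703 with SAHA and 93.0, 91.3 and 99.0 CPM with DMSO, so the groups overlapped (0.08 ± 0.07, edgeR adjusted p = 0.362). In H1299 it had 76.0, 74.6 and 76.7 CPM with SAHA and 67.0, 62.4 and 58.4 CPM with DMSO, with no overlap (0.22 ± 0.08, edgeR adjusted p = 0.0439). The H1299 call did not hold without any 1 of the 6 libraries, where edgeR adjusted p ran from 0.0592 without SAHA library 1 to 0.231 without DMSO library 3; it was 0.0638 without DMSO library 1, 0.137 without DMSO library 2, 0.068 without SAHA library 2, 0.107 without SAHA library 3 and 0.0822 with the replicate block. The interaction was -0.21 ± 0.11 (edgeR adjusted p = 0.138), and under DMSO TAP1 was 1.51-fold higher in H1703 (0.59 ± 0.07, edgeR adjusted p = 7.7e-06). The FPKM ratio of TAP1 to TAP2 was 1.91, 1.93 and 1.92 in H1703 SAHA libraries and 2.43, 2.26 and 2.40 in H1703 DMSO libraries, against 2.95, 2.71 and 2.82 in H1299 SAHA libraries and 1.21, 1.11 and 1.06 in H1299 DMSO libraries. The ratio thus was lower with SAHA in H1703 and higher in H1299, without overlap and with a two-sided exact permutation p of 0.1 in each line (n = 3 each). The neighbouring immunoproteasome gene PSMB9, whose row overlaps TAP1 and which is known to share its promoter region, fell in H1703 (-0.50 ± 0.13, edgeR adjusted p = 0.0062) and rose in H1299 (0.96 ± 0.20, edgeR adjusted p = 0.00236).

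TAPBP encodes tapasin, the chaperone that bridges class I molecules and the transporter. It had 136, 131 and 134 CPM in H1703 with SAHA and 206, 199 and 212 CPM with DMSO. The H1299 values were 55.9, 56.8 and 49.4 CPM with SAHA and 116, 108 and 103 CPM with DMSO. Every SAHA library lay below every DMSO library of its line. TAPBP fell in both, with a log2 fold change of -0.60 ± 0.07 in H1703 (edgeR adjusted p = 3.7e-05) and -1.07 ± 0.09 in H1299 (edgeR adjusted p = 1.0e-05), and the interaction of 0.39 ± 0.11 (edgeR adjusted p = 0.0117) marks the smaller fall in H1703. Under DMSO, TAPBP was 1.89-fold higher in H1703 (0.92 ± 0.08, edgeR adjusted p = 9.7e-08).

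NLRC5, the class I transactivator, had 10.7, 9.59 and 11.0 CPM in H1703 with SAHA and 12.4, 10.6 and 10.8 CPM with DMSO. In H1299 it had 6.93, 5.91 and 5.33 CPM with SAHA and 4.05, 4.67 and 5.26 CPM with DMSO. The groups overlapped in H1703 and lay just apart in H1299. Neither passed the test: the log2 fold change was -0.09 ± 0.13 in H1703 (edgeR adjusted p = 0.555) and 0.32 ± 0.18 in H1299 (edgeR adjusted p = 0.146), and the interaction was -0.49 ± 0.22 (edgeR adjusted p = 0.0984). Under DMSO, NLRC5 was 2.42-fold higher in H1703 than in H1299 (1.27 ± 0.15, edgeR adjusted p = 5.2e-06).

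The SAHA response differed between the lines for 4 of the 9 genes, HLA-B, HLA-E, TAP2 and TAPBP, and each of the 4 interactions was positive. Across all 19105 genes of that fit 13.7% were called positive and 21.2% negative (34.9% in all). The median interaction was 0.39 over the 9 genes and -0.09 over all genes.

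Under DMSO alone, H1703 differed from H1299 by higher RNA of HLA-F, TAP1, TAPBP and NLRC5 and lower RNA of HLA-B, HLA-E and TAP2. The count was 4 of 9 higher and 3 lower in H1703, where 34.3% of genes were called higher and 32.2% lower (66.5% in all). The median log2 difference was 0.47 over the 9 genes and 0.00 over all genes. With SAHA in both lines the HLA-B means were 168 ± 6.88 CPM in H1703 and 202 ± 8.95 CPM in H1299, and without it 22.7 ± 2.19 and 125 ± 1.64 CPM (SD, n = 3 each). Reads lost or split by sequence may enter the differences of HLA genes between the lines, which was not tested.

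Per length, the order of the 9 genes depended on the length used. In deposited FPKM, H1703 SAHA libraries had HLA-E highest at 53.2 ± 2.86 (SD, n = 3), then B2M at 26.5 ± 18.9 and HLA-B at 24.3 ± 0.930, which did not differ beyond the spread of B2M. NLRC5 was lowest at 0.390 ± 0.0292, and HLA-F next at 4.01 ± 0.395. In H1703 DMSO libraries HLA-E was again highest at 28.6 ± 2.40 FPKM, followed by TAPBP at 22.4 ± 0.945, while HLA-B ranked 7 of 9 at 3.49 ± 0.307. In H1299, HLA-E and HLA-B came first in both groups, at 50.8 ± 4.15 and 36.0 ± 1.53 FPKM with SAHA and 39.8 ± 1.69 and 21.99 ± 0.222 FPKM with DMSO. The lengths implied by the FPKM exceed the span of the gene for HLA-C (6.232 against 3.382 kb) and for B2M (12.755 against 7.401 kb). With canonical transcript lengths B2M came first in all 4 groups, at 359 ± 255, 226 ± 51.2, 164 ± 102 and 209 ± 66.2 CPM per kb, without TMM scaling, in H1703 SAHA, H1703 DMSO, H1299 SAHA and H1299 DMSO, and NLRC5 stayed last.

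The genes with the most similar patterns were sought among 12315 protein-coding genes, by the root mean square difference of log2 CPM centred on each gene's mean over 12 libraries. Nearest to HLA-B were CREB3L1, a membrane-bound transcription factor gene, at 0.195 and LAMB3, a laminin gene, at 0.203, where HLA-B itself varied by 1.254. CREB3L1 averaged 18.3 ± 1.25 CPM in H1703 SAHA, 2.22 ± 0.206 in H1703 DMSO, 27.5 ± 2.50 in H1299 SAHA and 12.9 ± 0.805 in H1299 DMSO. Nearest to HLA-F were the adhesion gene CADM4 at 0.23 and the protease gene TLL2 at 0.241. Nearest to NLRC5 were the ciliary transport gene IFT88 at 0.117 and TEAD1, a transcription factor gene of the Hippo pathway, at 0.12. The nearest genes to B2M lay farther off: NFAT5 lay at 0.568 and LEPROTL1 at 0.592, where B2M itself varied by 0.9.

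Around the 9 genes, 3 of 6 loading chaperones of the endoplasmic reticulum rose and 2 fell with SAHA in H1703 (median 0.29), where 34.7% of all genes were called higher and 32.6% lower. Among them were HSPA5, the chaperone BiP, 2.30-fold higher and CALR, calreticulin, 1.69-fold higher, and TAPBPL, the tapasin-related peptide editor, which fell (-1.04 ± 0.17). In H1299, 4 of 6 fell and 2 did not pass (median -0.77), against 30.4% of all genes called lower and 33.3% higher. CALR fell there (-0.55 ± 0.12), the only one of the 6 called in opposite directions, whereas TAPBPL and PDIA3, the ERp57 partner of tapasin, fell in both lines, PDIA3 by log2 fold changes of -0.26 ± 0.06 in H1703 and -0.98 ± 0.10 in H1299. TAPBPL was near the floor in H1299, with 14, 13 and 5 counts in SAHA libraries and 33, 30 and 25 in DMSO libraries. The interaction was positive for 5 of 6, against 13.7% of all genes, at 1.23 ± 0.15 for CALR and 1.21 ± 0.10 for HSPA5. CALR averaged 1420 ± 123 CPM in H1703 SAHA and 852 ± 24.8 CPM in H1703 DMSO.

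Of 9 peptide trimming genes, 2 rose and 5 fell in H1703 (median -0.31), where 34.7% of all genes were called higher and 32.6% lower. Without H1703 DMSO library 1 the count of falls was 3, which is near that share. In H1299, 7 of the 9 fell and 2 did not pass (median -0.65), against 30.4% of all genes called lower. ERAP1, the aminopeptidase that trims peptides in the endoplasmic reticulum, fell in H1299 (-1.23 ± 0.08), with an interaction of 1.26 ± 0.11. Of 14 constitutive 20S proteasome genes, 8 fell in each line (medians -0.41 in H1703 and -0.37 in H1299), against 32.6% of all genes called lower in H1703 and 30.4% in H1299, with PSMB6, a catalytic subunit, at -1.04 ± 0.10 in H1703 and -1.09 ± 0.09 in H1299. Those that rose were 2 in H1703 and 1 in H1299, PSMB1, whose call was lost without DMSO library 1 (edgeR adjusted p = 0.11), DMSO library 3 (0.0873) or SAHA library 3 (0.0693); 2 rose without DMSO library 2.

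The inducible proteasome subunits and the PA28 activator went both ways. In H1703, 1 of 5 rose and 3 fell (median -0.50), where 34.7% of all genes were called higher and 32.6% lower. In H1299, 2 rose and 2 fell (median -0.02), against 33.3% higher and 30.4% lower. PSMB10 fell in both lines, to 3.80, 5.69 and 2.69 CPM in H1703 SAHA libraries, against 25.0, 25.6 and 25.9 CPM in H1703 DMSO libraries (-2.62 ± 0.23). In H1299 its log2 fold change was -1.19 ± 0.13. PSMB8 also fell in both lines, in H1703 by a log2 fold change of -0.68 ± 0.09, while PSME1, a PA28 subunit, rose by 0.70 ± 0.08 and 0.48 ± 0.10 in H1703 and H1299. The interaction was negative for PSMB9 (-1.53 ± 0.25) and PSMB10 (-1.50 ± 0.27). Under DMSO, 4 of the 5 were higher in H1703 than in H1299 (median 0.93), against 34.3% of all genes, PSMB9 by 1.70 ± 0.18 and PSME1 by 1.49 ± 0.09.

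Other genes with the class I fold were led by AZGP1, which encodes a secreted class I-like glycoprotein. It had 294, 361 and 350 counts in H1703 SAHA libraries and 2, 2 and 0 in H1703 DMSO libraries, and 149, 143 and 146 in H1299 SAHA libraries and 0 in all 3 H1299 DMSO libraries. HFE, a regulator of iron uptake, fell in H1703 (-2.06 ± 0.18) and in H1299 (-3.27 ± 0.25), and MR1, which presents microbial vitamin metabolites, fell in H1703 (-0.82 ± 0.13) and was at 0.60 ± 0.32 in H1299, which did not pass. In all, 2 rose and 2 fell of 5 tested in H1703 (median 0.01), and 1 rose and 2 fell of 4 tested in H1299 (median 0.10), beside all-gene shares of 34.7% higher and 32.6% lower in H1703 and 33.3% and 30.4% in H1299. The second fall in H1299, of FCGRT, the neonatal Fc receptor gene, was lost without DMSO library 1 (edgeR adjusted p = 0.146), DMSO library 2 (0.0781), SAHA library 1 (0.144) or SAHA library 2 (0.0776) and with the replicate block (0.0844); without DMSO library 1, 2 rose.

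Of 13 factors of class I promoters, 4 rose and 6 fell in H1703 (median -0.40), and 2 rose and 8 fell in H1299 (median -0.46). Over all genes 34.7% were called higher and 32.6% lower in H1703, and 33.3% and 30.4% in H1299, so the rises in H1703 lie near that share. IRF1, the interferon-induced activator of class I genes, rose by 0.54 ± 0.08 in H1703 and by 0.38 ± 0.10 in H1299, and NFKB1, an NF-kappa B subunit, fell in H1703 (-1.12 ± 0.11) and in H1299 (-1.63 ± 0.11). RFXAP, an RFX subunit, rose by 0.85 ± 0.18 in H1703 and by 0.44 ± 0.13 in H1299, while NFYC, an NF-Y subunit, fell in H1703 (-1.81 ± 0.18) and in H1299 (-1.05 ± 0.10). The H1703 count of rises was 2 without DMSO library 2 and with total-count scaling, and the RFXAP call in H1299 was lost without DMSO library 2 (edgeR adjusted p = 0.0556), DMSO library 3 (0.0619) or SAHA library 3 (0.0675), which leaves 1 rise. Under DMSO IRF1 was 3.73-fold higher in H1703 than in H1299 (1.90 ± 0.08).

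Of 12 interferon receptors and signalling genes, 4 rose and 5 fell with SAHA in H1703 (median -0.03), and 5 rose and 4 fell in H1299 (median 0.10). These counts lie near the shares over all genes, 34.7% higher and 32.6% lower in H1703 and 33.3% and 30.4% in H1299. IFNGR1, a chain of the interferon gamma receptor, rose by 1.03 ± 0.07 and 1.19 ± 0.09 in H1703 and H1299, whereas the kinase gene JAK2 fell (-1.64 ± 0.11 in H1703 and -0.97 ± 0.11 in H1299). Of 19 interferon-stimulated genes, 5 rose and 10 fell of 19 tested in H1703 (median -1.10), and 4 rose and 8 fell of 15 tested in H1299 (median -0.62), beside the same all-gene shares. BST2, tetherin, rose to 35.7, 41.5 and 31.7 CPM in H1703 SAHA libraries, against 1.34, 0.583 and 0.825 CPM in H1703 DMSO libraries. GBP1, a guanylate-binding protein gene, fell in H1703 (-2.18 ± 0.14), and IFIT2, an inhibitor of viral translation, fell in H1299 (-2.54 ± 0.18). Under DMSO, 8 of the 12 signalling genes were higher in H1703 and 2 lower (median 0.71), and 13 of the 19 interferon-stimulated genes were higher and 3 lower (median 1.74), where 34.3% of all genes were called higher and 32.2% lower. GBP2 was 11.2-fold higher in H1703 (3.49 ± 0.12), and IFIH1, the RNA sensor MDA5, was lower (-1.84 ± 0.12).

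**Figure D5:**
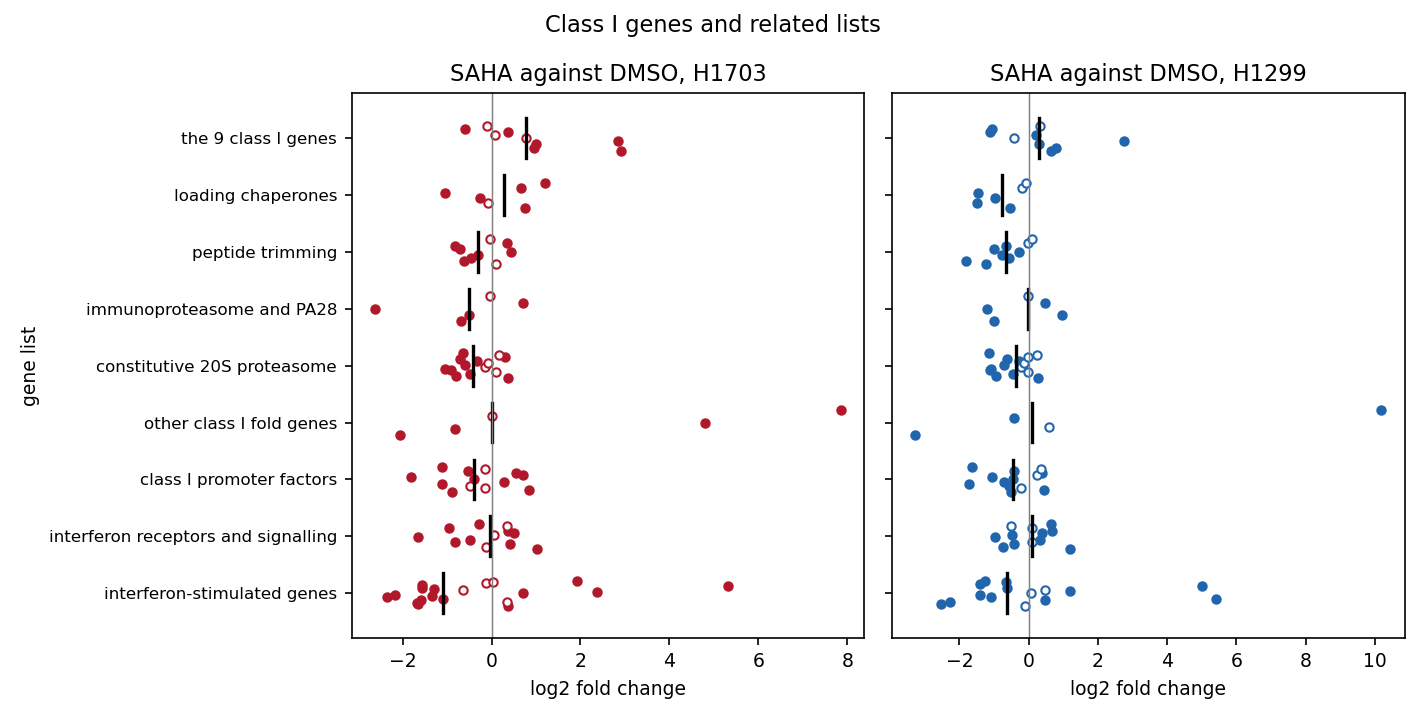
Log2 fold change of SAHA against DMSO (horizontal axes) for each tested gene of the 9 class I genes and of 8 related lists (rows) in H1703 and H1299, filled where the edgeR adjusted p was below 0.05, with the list median as a black bar. The 9 genes have medians of 0.78 and 0.29 in H1703 and H1299, and the interferon-stimulated genes -1.10 and -0.62.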

How the data were processed

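RNA-seq of 12 libraries was analysed from 1 deposited table per line, each with 58302 genes. Per the file headers, the deposited tables hold raw counts and FPKM for each library; the FPKM equalled count divided by column total and by 1 length per gene, within 1% in 100.0% of 304680 values. GRCh38, HISAT2 2.1.0, fastp, FastQC 0.11.9, edgeR 3.30.3 and StringTie 1.3.3b are listed in the submitters' processing notes, without roles. The sources used here do not give the counting tool, its annotation or its strand setting. The control columns carry a shorthand, taken as DMSO since a line has no other group beside SAHA.

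Low counts were filtered (filterByExpr, at least 10 counts and a total of 15), scaled by TMM and tested by a robust quasi-likelihood fit in edgeR 4.0.16 (R 4.3.3), with Benjamini-Hochberg adjustment over all tested genes and calls at adjusted p below 0.05. All 9 genes passed the filter in every fit. Each line was fitted alone; 1 fit over 12 libraries gave the interaction and the DMSO difference. SE is the log2 fold change divided by the root of F. CPM uses TMM over 12 libraries. Calls of list genes named in the text are by the same test. FPKM shares and ratios within libraries were compared by exact permutation. Canonical transcript lengths came from GENCODE v44. The pipeline was tested on simulated counts with the same spread setting for every gene. That test thus does not cover genes as unequal in spread as B2M and TAP2.

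The labels give the replicate number as a batch, which pairs same-numbered libraries; their deviations from group means correlated by only -0.031 to 0.033. No replicate pair looked like 1 library deposited more than once (chi-square over degrees of freedom 10.9 to 24.7). The 9 genes and the lists were chosen with earlier results of these data known. Named list genes were, per list and comparison, up to 2 called genes of each direction with the smallest adjusted p and mean log2 CPM of 1 or more; a selection of these is printed. With 14416126 to 19408852 counts per library, counting error weighed most on NLRC5 (67 to 195 counts) and, under DMSO, HLA-F (50 to 97 counts). Alternatives were DESeq2 1.42.0, RLE scaling, total-count scaling, no low-count filter, 1 fit over 12 libraries, only the 6 DMSO libraries, the replicate block, mitochondrial genes left out, the heavy chain genes summed, and each library left out; the canonical length was added after seeing the data.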

Additional observations from a re-analysis of the deposited data

Results flagged for a closer look

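Of the 9 genes, 4 showed a SAHA response that differed between the lines by the interaction test, H1703 minus H1299, on the log2 scale. The difference was 2.19 for HLA-B, with every SAHA library above every DMSO library in both lines. It was 0.64 for HLA-E, again with all SAHA libraries higher in both lines. For TAP2 it was 1.41, with all SAHA libraries higher in H1703 and all lower in H1299. For TAPBP it was 0.39, with all SAHA libraries lower in both lines. Groups of 3 libraries are too small for a single library to be singled out by the test used for outliers, so the low B2M value of 82.5 CPM in H1703 SAHA library 1 was not tested as one.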

How the results depend on the processing

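With total-count scaling, the median log2 fold change over all genes moved to -0.09 in H1703 and 0.09 in H1299, to -0.19 for the interaction and to -0.17 for the DMSO difference, against main medians of 0.02, 0.02, -0.09 and 0.00; read against that shift, TAP1 in H1703 turned to -0.0256 (edgeR adjusted p = 0.779) and the HLA-F interaction to -0.0848, the TAP1 interaction became a call (-0.32, edgeR adjusted p = 0.0338), giving 1 gene with a negative interaction, and the TAPBP interaction was lost (0.29, edgeR adjusted p = 0.0683). The count of genes higher in H1299 with SAHA was 5 in the main analysis, 3 without the low-count filter, 3 with the replicate block and 2 to 4 with a library left out. Without the low-count filter the lost calls were HLA-C in H1703 (edgeR adjusted p = 0.106) and in H1299 (0.0714) and TAP1 in H1299 (0.093), and DESeq2 gave TAP1 in H1299 an adjusted p of 0.0506. Uncalled interactions changed sign with a library left out, 4 times each for HLA-C (range -0.13 to 0.31) and HLA-F (range -0.15 to 0.18); the cause was not tested. Summing the 4 heavy chain genes into 1 row turned their DMSO difference to -0.59 (edgeR adjusted p = 6.6e-05), against a median of 0.10 over the 4 genes; the sums with SAHA were 1.44 in H1703 and 0.56 in H1299. The replicate block, which uses the batch number of the labels, ended the calls of HLA-C in both lines and of TAP1 in H1299 and no other call of the 9 genes; with it HLA-B was 2.91 in H1703 and 0.64 in H1299. HLA-B, HLA-F, TAP2 and TAPBP kept direction and call in both lines under every alternative run. Depth limits NLRC5 and, under DMSO, HLA-F; the spread between libraries limits B2M.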
